A study of Trichoderma reesei with 6 samples.

Results

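The *pep* genes of *Trichoderma reesei* are a listed set of 10 genes for pepsin-like aspartic proteases, named *pep1* to *pep5*, *pep7* to *pep9*, *pep11* and *pep12*. The members were taken from the list by their locus tags, and 9 of the 10 were found among the 9113 genes of the expression table. The tag of *pep9*, TRIREDRAFT_79807, and its symbol matched no row, and *pep9* was not analysed here. The rule that chose the members used no measured value, though earlier results of these data were known when they were chosen. The transcripts came from mycelia of 2 strains, Δ*gul1* and QPP, with 3 separate cultures of each. Δ*gul1* lacks most of *gul1*, which was replaced through homologous recombination by a cassette with the *Aspergillus niger pyrG* marker, and it is 1 purified mutant among those obtained. QPP, with *gul1* intact, carries *pyrG* at a random site. Both descend from QP4, a strain that cannot make uridine because *pyr4* was deleted in QM9414, so the *pyr4* deletion and the *pyrG* marker are shared by all 6 libraries. Every culture spent 36 hr in minimal medium with 2% glucose and 48 hr in a cellulase production medium with 1% cellulose, and poly-A mRNA was then sequenced as paired reads. Whether the 3 cultures of a strain came from separate 36 hr cultures is not stated.

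Pepsin-like aspartic proteases cut peptide bonds with a pair of catalytic aspartates, work best in acid, and are made as inactive precursors that lose a propeptide. Filamentous fungi secrete some of them into the medium, keep others in the vacuole and tether others to the cell surface through a glycosylphosphatidylinositol (GPI) anchor. In *T. reesei* broths, secreted acid proteases are known for degrading secreted enzymes and foreign proteins, which is why such genes are deleted in production strains. In *Saccharomyces cerevisiae*, Pep4 is the vacuolar proteinase A, and the yapsins are GPI anchored aspartic proteases that take part in cell wall maintenance. Of the genes described here, *pep8*, *pep11* and *pep12* were predicted in the study to encode GPI anchored proteins. The table does not state where the other products go, nor whether the *T. reesei pep4* is the ortholog of the yeast gene of that name.

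The deposited unit was FPKM, fragments on a gene divided by its length and by a total for the library. These totals, recovered from the steps of the values, ranged from 17654286 to 20652886 fragments in Δ*gul1* and from 18877793 to 21659230 in QPP. The deleted gene was at 0.979, 0.581 and 0.746 FPKM in the Δ*gul1* libraries, against 86.9, 82.4 and 79.9 FPKM in the QPP libraries, so the labels of all 6 libraries matched the genotype. For comparisons the FPKM were divided by a size factor per library, which ranged from 1.05 to 1.07 in Δ*gul1* and from 0.931 to 0.965 in QPP, and log2 was taken after adding 1. Without this scaling the median difference over all genes was 0.14 on the log2 scale, against 0.01 with it. The share of higher calls among all calls was then 61.2%, against 47.2% with it. A gene was called at the threshold values of the study, an absolute log2 fold change above 1 with an unadjusted *p* under 0.05 (limma). The study set them on DESeq results, and here they were set on scaled FPKM plus 1. Adding 1 makes fold changes smaller at low levels, so the calls are not the study's. "Rose" and "fell" are used below where the Benjamini-Hochberg adjusted *p* over all 9006 genes tested was under 0.05, and every adjusted *p* given is of that kind. These are transcript levels of whole mycelium, in which fewer cells expressing a gene and less RNA per cell cannot be told apart.

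*pep5* was the *pep* gene with the largest difference, at 5.90 times the QPP level in Δ*gul1*. *pep7* also rose, to 2.18 times its QPP level, and *pep2*, the least abundant *pep* gene, rose to 1.69 times. *pep11* fell to 0.706 times its QPP level. The other 5 genes, among them the abundant *pep4* and *pep12*, had adjusted *p* between 0.0550 and 0.844 (limma). By the calling thresholds, 1 of the 9 genes, *pep5*, was called higher, where 1.87% of all genes tested were called higher. The count was 2, *pep7* joining *pep5*, without Δ*gul1* replicate 3, without QPP replicate 1 and without QPP replicate 2. No *pep* gene was called lower, where 2.09% of all genes were. At an unadjusted *p* under 0.05 in limma, 4 of the 9 were higher and 2 lower, beside 20.2% and 20.8% of all genes tested. A voom fit on the recovered fragments called 2 of the 9 higher and 0 lower, beside 3.31% and 2.97% of the genes in that fit. By the adjusted *p* alone, 3 of 9 rose and 1 of 9 fell, beside 14.5% that rose and 15.0% that fell, or 29.6% in all, of the genes tested. For 6 of the 9 genes the Δ*gul1* and QPP libraries were separate in scaled FPKM, 4 of them higher and 2 lower in Δ*gul1*. Over all genes tested the share was 45.0%, with 22.3% higher and 22.7% lower. The median log2 fold change over the 9 genes was 0.16, beside 0.01 over all genes tested, and it was 0.04 without QPP replicate 1, 0.09 without Δ*gul1* replicate 2 and 0.08 without Δ*gul1* replicate 3. The 9 genes went different ways, with log2 fold changes spread between −0.49 and 2.45.

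**Figure D1:**
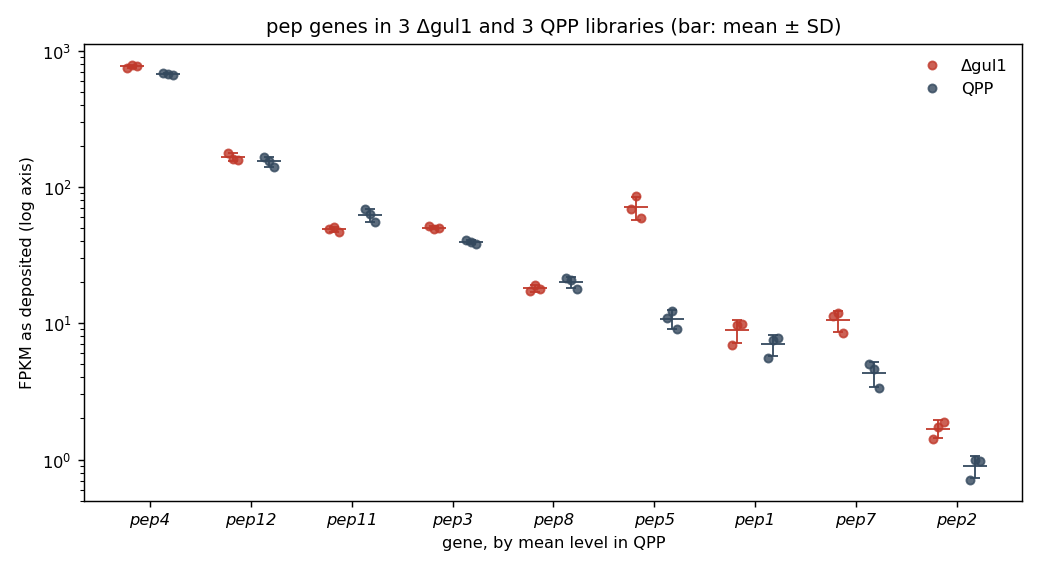
FPKM as deposited of the 9 *pep* genes in each library on a log axis, Δ*gul1* left of QPP within each gene, with a point per culture and a bar at the mean ± SD of 3. The Δ*gul1* points of *pep5* lie between 59.1 and 85.8 FPKM and those of QPP between 9.05 and 12.4 FPKM, while the *pep4* points sit near the top of the axis in both strains.

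**Figure D2:**
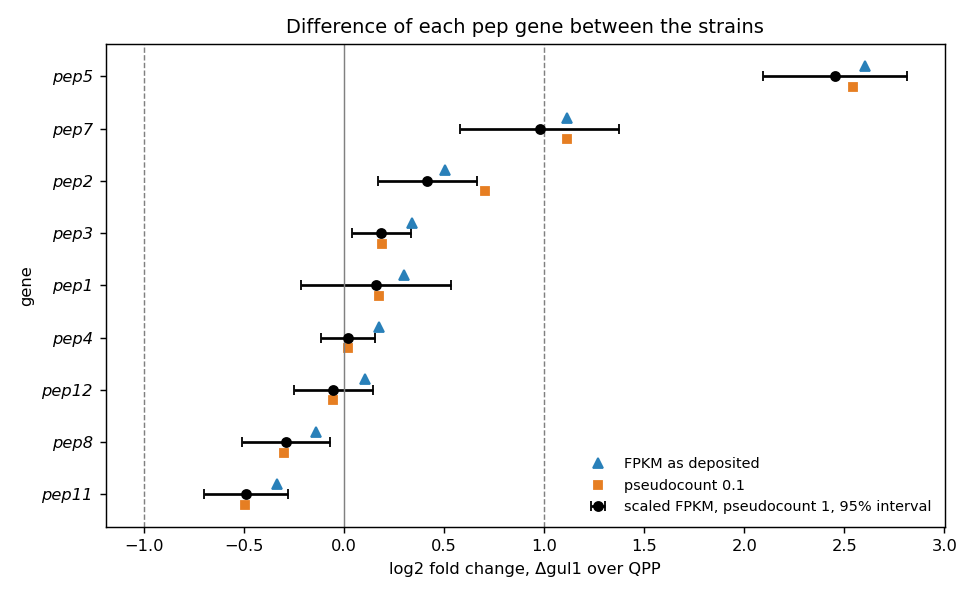
Log2 fold change of each *pep* gene (Δ*gul1* over QPP, on the log2 scaled FPKM + 1 scale) with its 95% interval from limma (black points and bars), ordered by size, with triangles for the FPKM as deposited, squares for a pseudocount of 0.1 and dashed lines at the threshold of 1 in each direction. The interval of *pep5* runs from 2.09 to 2.81, that of *pep7* from 0.58 to 1.37 and that of *pep11* from −0.70 to −0.28, and those of *pep1*, *pep4* and *pep12* cross 0.

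*pep5* (TRIREDRAFT_81004) spans positions 28465 to 29930 of its scaffold in the QM6a assembly, with a gene model of 1323 bp after introns. It was at 68.4, 85.8 and 59.1 FPKM in Δ*gul1*, against 11.0, 12.4 and 9.05 FPKM in QPP. The Δ*gul1* libraries were all far above the QPP libraries, and the mean was 71.1 ± 13.5 FPKM in Δ*gul1* and 10.8 ± 1.68 FPKM in QPP (SD, n = 3 each). These values rest on 1510 to 2003 fragments per library in Δ*gul1* and 226 to 355 in QPP. The log2 fold change was 2.45 (SE 0.155), with an adjusted *p* of 4.04e-05 in limma. It placed *pep5* 16th from the top among the 9006 genes tested. The gene was called under each of 15 alternative settings, with log2 fold changes between 2.31 and 2.60, and leaving out single libraries gave 2.31 to 2.58. In terms of level, 72.7% of the genes tested were below *pep5* in Δ*gul1* and 27.7% were below it in QPP. The coefficient of variation among its cultures was 19.5% in Δ*gul1* and 14.7% in QPP, and those of *pep7*, 18.1% in Δ*gul1* and 21.1% in QPP, and *pep1*, 18.7% in Δ*gul1* and 16.5% in QPP, were of similar size.

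*pep7* (TRIREDRAFT_58669) lies at positions 331103 to 332623 of its scaffold and has a model of 1338 bp. Its FPKM were 11.2, 11.9 and 8.43 in Δ*gul1*, against 5.04, 4.59 and 3.33 in QPP. The strains did not overlap, and the lowest Δ*gul1* library was above the highest QPP library. The mean was 10.5 ± 1.82 FPKM in Δ*gul1* and 4.32 ± 0.888 FPKM in QPP (SD, n = 3 each), from 218 to 310 and from 84 to 135 fragments per library. Its log2 fold change was 0.98 (SE 0.170) with an adjusted *p* of 0.00444 in limma, just under the threshold of 1. It passed the threshold with the FPKM as deposited (1.11), with smaller pseudocounts (1.11 and 1.13) and with voom (1.12). It also passed without Δ*gul1* replicate 3 (1.12), without QPP replicate 1 (1.09) and without QPP replicate 2 (1.01). In replicate 3 of both strains *pep5* and *pep7* were at their lowest, although the replicate numbers were not taken to pair the cultures. The ratio of *pep5* to *pep7* FPKM within a library was 6.09 to 7.23 in Δ*gul1* and 2.18 to 2.72 in QPP.

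*pep2* (TRIREDRAFT_53961) is an intronless model of 1200 bp at positions 2802847 to 2804046, and it was the least abundant member in every library. It was at 1.41, 1.75 and 1.90 FPKM in Δ*gul1*, against 0.707, 1.00 and 0.971 FPKM in QPP. All Δ*gul1* values exceeded all QPP values, on 35 to 44 fragments per library in Δ*gul1* and 17 to 26 in QPP. The means were 1.69 ± 0.248 FPKM in Δ*gul1* and 0.893 ± 0.161 FPKM in QPP (SD, n = 3 each). Its log2 fold change was 0.42 (SE 0.106), with an adjusted *p* of 0.0218 in limma. Adding 1 compresses a change at this level, and the log2 fold change was 0.70 and 0.76 with pseudocounts of 0.1 and 0.01. The adjusted *p* was under 0.05 in 10 of 15 alternatives and ranged up to 0.0723. It was 0.0629 without Δ*gul1* replicate 2 and 0.0723 without replicate 3 of that strain, and leaving out QPP replicate 1 gave 0.0678 (limma).

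*pep3* (TRIREDRAFT_121133, positions 137602 to 139721, model of 2002 bp) was one of the least variable members. Its FPKM were 51.5, 49.3 and 50.0 in Δ*gul1*, against 40.8, 39.6 and 37.9 in QPP. The strains did not overlap, but the scaled means differed by a ratio of 1.14 only. The log2 fold change of 0.19 had a 95% interval of 0.04 to 0.33 and an adjusted *p* of 0.0586 (limma). With the FPKM as deposited it was 0.34 with an adjusted *p* of 0.00377, and the adjusted *p* was under 0.05 in 3 of 15 alternatives. The next annotated gene, TRIREDRAFT_59391, lies 24 bp away. Whether the counting used strand is not given in the sources used here, so fragments of adjoining transcripts cannot be told apart. The same limit holds for *pep2*, which rests on far fewer fragments and has TRIREDRAFT_103149 at 235 bp. It also holds for *pep12* and *pep8*, with a gene at 233 and 338 bp.

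*pep1* (TRIREDRAFT_74156, listed under the symbol *pap1*, positions 2191952 to 2193276, model of 1247 bp) had overlapping values. It was at 6.87, 9.77 and 9.92 FPKM in Δ*gul1*, against 5.56, 7.59 and 7.82 FPKM in QPP. Replicate 1 was the low library in both strains. From its lowest to its highest library, each strain spanned more than the gap between the means. The means were 8.85 ± 1.72 FPKM in Δ*gul1* and 6.99 ± 1.24 FPKM in QPP (SD, n = 3 each). Its log2 fold change was 0.16 with a 95% interval of −0.22 to 0.53 (adjusted *p* = 0.512, limma).

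*pep4* (TRIREDRAFT_77579, positions 720415 to 721814, model of 1247 bp) was by far the most abundant of the 9 transcripts. Its FPKM were 740, 783 and 774 in Δ*gul1*, against 684, 679 and 668 in QPP. As deposited, the Δ*gul1* values were all above the QPP values, and after scaling between libraries they overlapped. The scaled means had a ratio of 1.01. The log2 fold change was 0.02 with a 95% interval of −0.12 to 0.15 (adjusted *p* = 0.844, limma). With 15716 to 19057 fragments per library, depth was not limiting here. With the FPKM as deposited, the log2 fold change was 0.18 (adjusted *p* = 0.0501, limma), beyond the upper end of that interval. In both strains more than 98% of the genes tested were below *pep4*, which ranked 124 in Δ*gul1* and 131 in QPP.

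The log2 fold changes of the 3 genes with a predicted GPI anchor, *pep8*, *pep11* and *pep12*, were below 0, and those of the other 6 genes were above 0. Of all 9006 genes tested, 4419 were below 0 and 4587 above 0, and the split was not tested. The sign of *pep12* was not stable, being positive with the FPKM as deposited (0.11) and without QPP replicate 1 (0.02), and that of *pep4* was negative with upper quartile scaling (−0.0014). *pep11* was the *pep* gene that fell. *pep11* (TRIREDRAFT_121306, positions 167432 to 169974, model of 2350 bp) was at 49.0, 51.1 and 47.0 FPKM in Δ*gul1*, against 68.5, 63.0 and 55.2 FPKM in QPP. All Δ*gul1* libraries were below all QPP libraries, both before and after scaling. The means were 49.1 ± 2.09 FPKM in Δ*gul1* and 62.2 ± 6.69 FPKM in QPP (SD, n = 3 each). On the log2 scale the fold change was −0.49 (SE 0.0903), with an adjusted *p* of 0.00576 in limma. Its adjusted *p* was under 0.05 in all 15 alternatives, with log2 fold changes between −0.57 and −0.33.

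*pep8* (TRIREDRAFT_122076, positions 631520 to 633494, model of 1912 bp) showed a smaller difference in the same direction. It was at 17.2, 19.1 and 17.7 FPKM in Δ*gul1*, against 21.3, 20.8 and 17.8 FPKM in QPP. These values overlapped as deposited and separated after scaling, where the ratio of means was 0.808. The log2 fold change was −0.29 with a 95% interval of −0.51 to −0.07, and the adjusted *p* of 0.0550 (limma) missed the threshold. It was under 0.05 in 5 of 15 alternatives, 1 of them leaving out QPP replicate 3 (0.0336), and with the FPKM as deposited the log2 fold change was −0.14. *pep12* (TRIREDRAFT_119876, positions 2995819 to 2997479, model of 1537 bp) was at 178, 161 and 157 FPKM in Δ*gul1*, against 166, 155 and 140 FPKM in QPP. The strains overlapped, and the log2 fold change was −0.05 with a 95% interval of −0.25 to 0.14 (adjusted *p* = 0.691, limma).

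**Figure D3:**
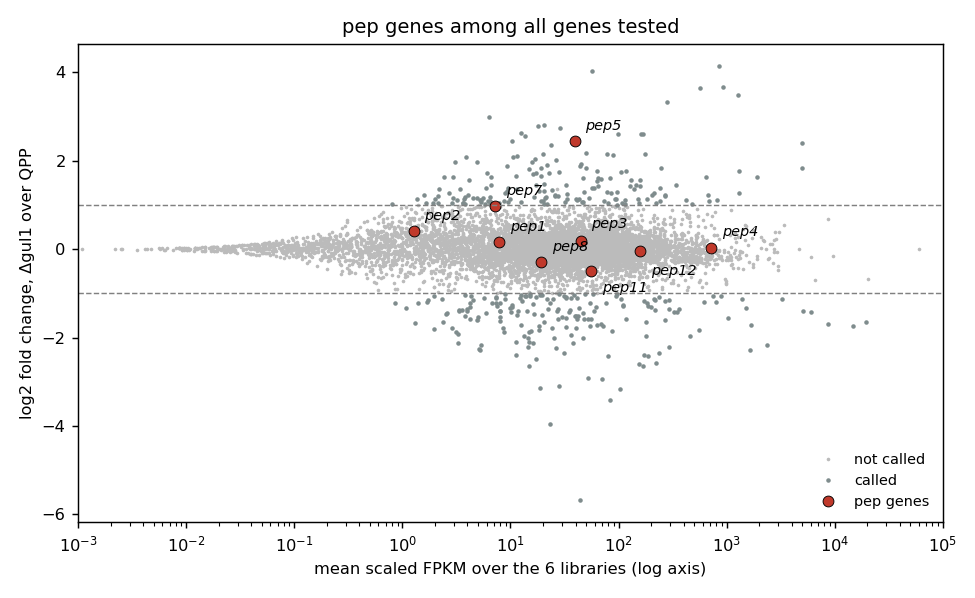
Mean scaled FPKM over the 6 libraries (log axis) against the log2 fold change, Δ*gul1* over QPP, for the 9006 genes tested, with called genes in darker grey, the 9 *pep* genes in red and dashed lines at the threshold of 1 in each direction. *pep5*, at 2.45, lies above the upper line, *pep7*, at 0.98, lies against it, and the other 7 *pep* genes lie between the lines over a wide span of levels.

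Because FPKM is per length, the levels of the genes can be set side by side. In Δ*gul1* the order of scaled FPKM was *pep4*, *pep12*, *pep5*, *pep3*, *pep11*, *pep8*, *pep7*, *pep1* and *pep2*. In QPP it was *pep4*, *pep12*, *pep11*, *pep3*, *pep8*, *pep5*, *pep1*, *pep7* and *pep2*. *pep5* thus stood at place 3 in Δ*gul1* and at place 6 in QPP. The libraries of neighbours in the order overlapped for *pep3* and *pep11* and for *pep7* and *pep1* in Δ*gul1*, and for no neighbours in QPP. The ratio of *pep5* to *pep11* FPKM within a library was 1.26 to 1.68 in Δ*gul1* and 0.160 to 0.197 in QPP, so the more abundant of this pair differed between the strains in every library. The ratio of *pep3* to *pep11* was 0.964 to 1.06 in Δ*gul1* and 0.596 to 0.686 in QPP. From the most to the least abundant member, the scaled means spanned 455-fold in Δ*gul1* and 760-fold in QPP.

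The summed level of the 9 transcripts differed little between the strains. The sum of scaled FPKM was 1072, 1110 and 1052 in Δ*gul1*, against 1077, 1019 and 993 in QPP, and the libraries overlapped. The sums of FPKM as deposited did not overlap, at 1124 to 1172 in Δ*gul1* and 940.1 to 1003 in QPP. The means of the scaled sums were 1078 ± 29.1 in Δ*gul1* and 1030 ± 43.4 in QPP (SD, n = 3 each), a ratio of 1.05. The ratio was 1.17 with the FPKM as deposited and 1.12 without *pep4*. *pep4* made up 65.8 to 68.8% of the sum in Δ*gul1* and 68.2 to 71.0% in QPP, and *pep12* made up 13.7 to 15.9% in Δ*gul1* and 14.9 to 16.6% in QPP. The share of *pep5* was 5.25 to 7.32% in Δ*gul1* and 0.963 to 1.26% in QPP. With *pep4* set aside, *pep5* made up 16.8 to 22.0% of the remaining sum in Δ*gul1* and 3.32 to 4.08% in QPP. Without *pep4* and *pep5*, the sum of the other 7 genes was 273 to 301 in Δ*gul1* and 278 to 331 in QPP.

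**Figure D4:**
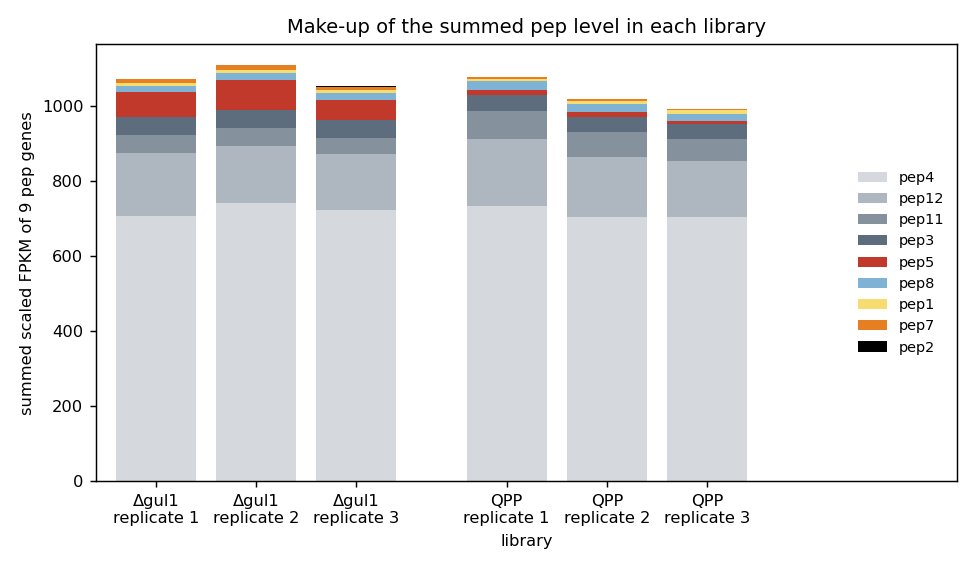
Stacked bars of the scaled FPKM of the 9 *pep* genes in each library, the 3 Δ*gul1* libraries left of the 3 QPP libraries, from 0. *pep4* fills most of every bar, the totals lie between 993 and 1110, and the *pep5* band is 5.25 to 7.32% of the bar in Δ*gul1* and 0.963 to 1.26% in QPP.

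The *pep* genes did not form a cluster. *pep1*, *pep2* and *pep12* lay on one run of ascending coordinates in the gene table, with 180 genes between *pep1* and *pep2* and 49 genes between *pep2* and *pep12*, and the other 6 were each on a run of their own. These 3 genes had log2 fold changes of 0.16, 0.42 and −0.05. None of the 18 genes next to a *pep* gene was called in either direction, where 3.95% of all genes tested were. At an unadjusted *p* under 0.05 in limma, 3 of the 18 were higher and 7 lower, beside 20.2% and 20.8% of all genes, and voom called 0 of those in its fit. By the adjusted *p*, 2 of the 18 rose and 6 fell, beside 14.5% and 15.0% of all genes. Their log2 fold changes ranged from −0.92 to 0.56. Beside *pep5*, TRIREDRAFT_67772 at a distance of 1030 bp rose with a log2 fold change of 0.38 (adjusted *p* = 0.00466, limma). TRIREDRAFT_81007, 1315 bp away on the other side, had −0.15 (adjusted *p* = 0.104, same test). Beyond TRIREDRAFT_67772 on the same side of *pep5*, TRIREDRAFT_110692 rose with a log2 fold change of 0.77. Beyond TRIREDRAFT_81007, TRIREDRAFT_123445 was at 0.06. The 2 genes beside *pep7*, TRIREDRAFT_76269 and TRIREDRAFT_105328, each had −0.18. TRIREDRAFT_105328 was barely detected, with scaled means of 0.119 in Δ*gul1* and 0.281 in QPP, where adding 1 compresses a change. The neighbour with the lowest value was TRIREDRAFT_77577 beside *pep4*, at −0.92, while *pep4* itself was at 0.02.

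**Figure D5:**
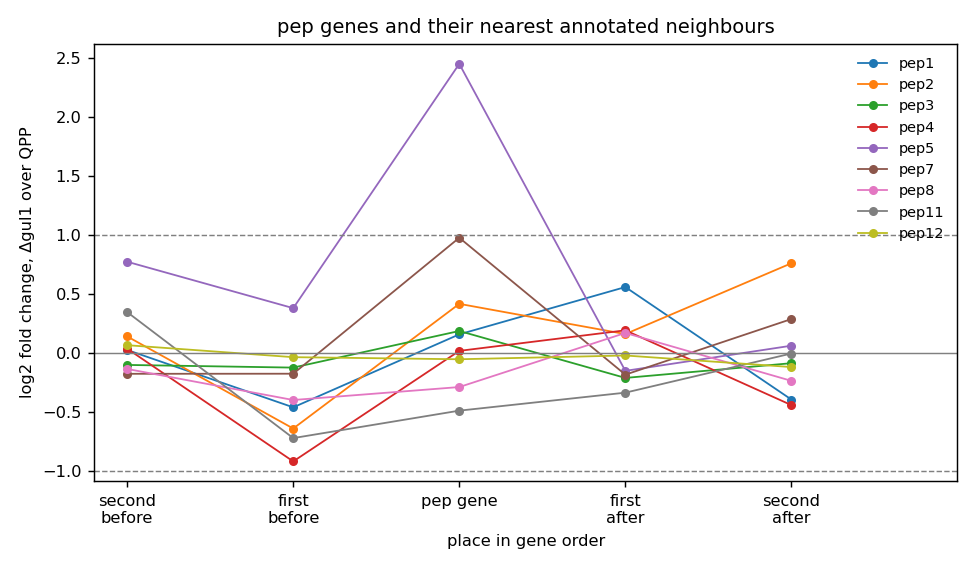
Log2 fold change (Δ*gul1* over QPP) of each *pep* gene and of the 2 annotated genes on each side, by gene order from the *pep* gene at 0, with a line per *pep* gene and dashed lines at the threshold of 1. The *pep5* line peaks at 2.45 in the centre, with 0.38 and −0.15 at its nearest neighbours, and no neighbour passes the threshold in either direction.

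A list of 18 other protease genes, drawn up from general knowledge of secreted peptidases and annotated in the table for *prb1* only, was read from the same fit. Of these 18 genes 0 were called higher and 4 lower, beside 1.87% and 2.09% of all genes tested, and the list was not tested against the *pep* genes. At an unadjusted *p* under 0.05 in limma, 4 of the 18 were higher and 8 lower, beside 20.2% and 20.8% of all genes, and voom called 0 higher and 4 lower of those in its fit. Of the 18, 2 rose and 5 fell by the adjusted *p*, beside 14.5% and 15.0% of all genes. The median log2 fold change of the 18 was −0.15. Those called lower were *prb1* (TRIREDRAFT_121495; −1.21), TRIREDRAFT_69555 (−1.91), TRIREDRAFT_123234 (−1.42) and TRIREDRAFT_64719 (−1.40), with adjusted *p* of 0.00324 or less (limma). *prb1*, which shares its name with the gene of vacuolar proteinase B in *S. cerevisiae*, averaged 0.123 ± 0.0568 FPKM in Δ*gul1* and 1.52 ± 0.358 FPKM in QPP (SD, n = 3 each), on 2 to 5 and 38 to 52 fragments per library. Because adding 1 compresses changes at such levels, the log2 fold change of *prb1* was −2.99 and −3.75 with pseudocounts of 0.1 and 0.01 and −3.66 with voom, and that of TRIREDRAFT_69555 was −2.80, −2.97 and −2.91. *prb1* was not among the genes averaging at least 1 FPKM, and 3 of the list were called there. The most abundant of the list, TRIREDRAFT_123244, was at 1971 ± 154 FPKM in Δ*gul1* and 1488 ± 114 FPKM in QPP, with a log2 fold change of 0.25 (adjusted *p* = 0.107, same test). It thus exceeded *pep4* in both strains. The list had been divided into 6 groups by kind of peptidase, and the most abundant gene of each group was also read. Among these, TRIREDRAFT_81070 rose with a log2 fold change of 0.24 (adjusted *p* = 0.0135, or 0.0552 without QPP replicate 2, limma), and TRIREDRAFT_122703 was at −0.14 (adjusted *p* = 0.0890, same test). TRIREDRAFT_73897 was at −0.84 with an adjusted *p* of 0.0656 (limma). The adjusted *p* was under 0.05 in 4 of 15 alternatives, among them 0.0429 with the replicate number as a block (limma). Its FPKM in QPP were 20.9, 46.7 and 18.9. The log2 fold change was −0.45 without QPP replicate 2 and −1.07 without QPP replicate 3. TRIREDRAFT_82623, the only gene of its group, was barely detected, at 0.107 ± 0.0187 FPKM in Δ*gul1* and 0.248 ± 0.0616 FPKM in QPP (SD, n = 3 each), and its log2 fold change was −0.20, −0.84 and −1.28 with pseudocounts of 1, 0.1 and 0.01.

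The 3 genes read as possible marks of conidiation differed between the strains in opposite directions. *wetA* (TRIREDRAFT_4430), known in *Aspergillus nidulans* for conidial maturation, was at 17.0 ± 2.65 FPKM in Δ*gul1* and 7.47 ± 1.50 FPKM in QPP (SD, n = 3 each), a log2 fold change of 0.95 (adjusted *p* = 0.00357, limma). *brlA* (TRIREDRAFT_108357), which switches on conidiation in that species, was at 615 ± 35.5 FPKM in Δ*gul1* and 1149 ± 98.8 FPKM in QPP. The log2 fold change of *brlA* was −1.06 (adjusted *p* = 0.000147, limma). It was −0.90 with the FPKM as deposited, −0.99 with quantile scaling and −0.98 without QPP replicate 1. TRIREDRAFT_82208 was at 211 ± 43.6 FPKM in Δ*gul1* and 73.3 ± 12.7 FPKM in QPP, a log2 fold change of 1.35 (adjusted *p* = 0.000981, limma). The table lists all 3 by tag alone, and the names *wetA* and *brlA* are the study's. *wetA* and TRIREDRAFT_82208 were thus higher and *brlA* lower in Δ*gul1*, and their part in the differences of *pep5*, *pep7*, *pep2* and *pep11* was not tested.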

How the data were processed

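RNA from 3 cultures each of Δ*gul1* and QPP was sequenced. Per the labels and methods, reads were trimmed with cutadapt and mapped to the QM6a assembly with HISAT2, fragments per gene were counted with HTSeq, and the authors deposited FPKM. DESeq was used by the authors for their own comparison. Coordinates are those of the same assembly, and scaffold names were not used here.

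Libraries were scaled with size factors by the median of ratios, a pseudocount of 1 was added, and limma 3.58.1 in R 4.3.3 was run on the log2 values. The fit (lmFit, then eBayes with its trend option) had no term but strain and took the 9006 genes whose FPKM exceeded 0 somewhere in the 6 libraries. The scaling and the limma fit were run on data simulated from their own fitted means and spread, which is a check of the code only. Fragment recovery, voom and the sums were not tested in this way. Ratios of means use scaled FPKM, while means and SD use deposited FPKM. Tables and figures were made with matplotlib 3.10.9, pandas 2.3.3 and numpy 2.4.6 in Python 3.11.15. Fragments came out whole, to within 0.01, at a single possible gene length for 8238 genes, all 9 *pep* genes included, at several lengths for 764, and at none for 4.

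With 3 libraries a strain, 0.1 is the smallest two-sided *p* of an exact permutation test, so tests rest on limma. Alternatives were deposited FPKM, upper quartile and quantile scaling, pseudocounts of 0.1 and 0.01, genes averaging at least 1 FPKM, eBayes with the trend off, a replicate block, each library left out, the adjusted *p* alone and, chosen after seeing the data, voom on recovered fragments. Members and lists were chosen with earlier results of these data known. Named genes were all *pep* genes, *gul1*, listed proteases that were called or were the most abundant of their kind of peptidase, and the conidiation genes. The neighbours named were chosen after their values were seen.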

Additional observations from a re-analysis of the deposited data

How the results depend on the processing

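The calls of *pep5* and of *gul1* and the direction of every *pep* gene other than *pep4* and *pep12* held in each alternative that was run. Genes called higher over the whole table numbered 168, against 289 and 314 with pseudocounts of 0.1 and 0.01 and 273 with voom, which was chosen after seeing the data. By the adjusted *p* alone, 1309 genes were higher and 1354 lower. Among them were 3 higher and 1 lower *pep* genes, and 2 higher and 5 lower genes of the other protease list. *pep* genes called higher numbered 2 with the FPKM as deposited, with either smaller pseudocount and with voom, and 1 to 2 with a library left out. The added gene was *pep7*, at 1.11 as deposited, 1.11 and 1.13 with the smaller pseudocounts, 1.12 with voom and 0.83 to 1.12 with a library left out. *pep4* was at −0.0014 with upper quartile scaling, and *pep12* was at 0.11 as deposited and at −0.12 to 0.018 with a library left out. TRIREDRAFT_122703 of the other protease list was at 0.016 as deposited. Over the *pep* genes the median was 0.30 as deposited and 0.038 to 0.18 with a library left out, and the ratio of their sums was 1.17 as deposited and 1.12 without *pep4*. The causes of these shifts were not tested.

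Same-numbered cultures of the strains had correlated deviations of −0.09, 0.18 and 0.37, and not every library correlated best with its own number, so the numbers were not taken to pair the cultures. These correlations cannot exclude a pairing. With the replicate block, 169 genes were called higher and 188 lower, no *pep* gene changed its call, and TRIREDRAFT_73897 passed an adjusted *p* of 0.05 (0.0429, limma). The block lowered the SE of *pep5* from 0.155 to 0.080, of *pep7* from 0.170 to 0.102 and of *pep1* from 0.161 to 0.095. The SE was also lower with the block for *pep12* (0.085 to 0.055), *pep11* (0.090 to 0.074), *pep2* (0.106 to 0.094) and *pep8* (0.095 to 0.094). The block raised the SE of *pep4* from 0.058 to 0.072 and that of *pep3* from 0.063 to 0.064. Depth limits *pep2* most, with 17 to 26 fragments per QPP library. The planned look at protein features was not run.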
